A study of Homo sapiens with 12 samples.

Results

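The protein arginine methyltransferases are enzymes that transfer methyl groups from S-adenosylmethionine to arginine side chains of histones, RNA-binding proteins and other substrates. The genes described here are PRMT1, PRMT2, PRMT3, CARM1, PRMT5, PRMT6, PRMT7 and PRMT8, together with WDR77, which encodes the obligate partner of PRMT5. These 9 genes were taken by symbol from a count table of 56638 genes, and all 9 had enough counts to be among the 19130 genes tested. The question was whether the other enzymes or WDR77 changed when PRMT6 was lost.

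Messenger RNA had been sequenced from NT2/D1 cells. This human line came from an embryonal carcinoma and differentiates in all-trans retinoic acid (ATRA). Control cells were NT2/D1 cells made as a CRISPR/Cas9 control, and knockout cells were NT2/D1 cells lacking PRMT6 through CRISPR/Cas9, from the only knockout line the labels name (KO-2). Both genotypes were profiled without treatment and on 3 days of 1 µM ATRA, giving 4 groups of 3 libraries. Since no label ties a library to its own culture, p-values here reflect library-to-library spread, possibly technical.

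The family falls into classes by the methylarginine it makes. Type I enzymes, among them PRMT1, PRMT2, PRMT3, CARM1, PRMT6 and PRMT8, make asymmetric dimethylarginine, PRMT5 makes the symmetric form, and PRMT7 makes monomethylarginine. In pluripotent and germ cells PRMT5 and WDR77 are known for keeping differentiation genes off, and PRMT6 for methylating arginine 2 of histone H3, a mark that opposes the methylation of the neighbouring lysine 4.

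Total counts were 25.5 to 60.4 M per library, and levels are given as CPM, the count of a gene scaled to a common library size after adjustment by the trimmed mean of M-values (TMM). At these depths 3 counts correspond to 0.0433 to 0.128 CPM. The label of the line was checked against 10 pluripotency markers, whose summed level was 3338 to 5113 CPM in untreated control and 3263 to 5624 CPM in untreated knockout libraries. POU5F1, LIN28A and DNMT3B were high, with LIN28A the largest part of the sum, while ZFP42 was at no more than 0.128 CPM in the 6 untreated libraries. SOX2 was lower in the untreated knockout, at 50.7, 47.3 and 78.9 CPM against 156, 279 and 183 CPM in control. LIN28B was lower too, at 13.7 to 20.2 against 26.6 to 75.4 CPM, and the other markers overlapped between the untreated genotypes. The libraries were not equally distinct. Knockout ATRA libraries 1 and 3 were close to each other, with 1.91 as chi-square per gene, and untreated knockout libraries 1 and 2 less so, with 9.01, whereas the other pairs within a group differed by 78.1 to 416. Both pairs are called near-identical below, relative to the other pairs only. Summing each pair leaves 2 libraries per knockout group, and untreated calls fell from 34.9% to 5.42% of all genes. The part of the smaller groups in calls lost that way was not tested. Summed stromal markers (8 genes, collagens among them) were at 436 to 537 CPM in untreated control and 2245 to 13910 CPM in untreated knockout libraries, and at 264 to 1503 against 2253 to 12414 CPM with ATRA. In the knockout COL3A1 was the largest part of this sum, at 1319 to 10915 CPM untreated, and other markers did not all follow. THY1 overlapped between genotypes untreated and was lower in the knockout with ATRA. In untreated knockout 3, DCN (0.128 CPM) lay within and POSTN (0.428 CPM) below the untreated control range. Within the knockout, untreated library 3 and ATRA library 2 were the low ones by the sum. The part of these differences in the results below was not tested, and the members called without those libraries are given with the counts.

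PRMT6 itself served as the check of the labels. Untreated control libraries held 22.4, 1.94 and 8.94 CPM, and control ATRA libraries held 29.9, 15.9 and 26.8 CPM. Untreated knockout libraries held 0.0351, 0 and 0.0428 CPM, and knockout ATRA libraries held 0, 0.0587 and 0 CPM. All 6 knockout libraries were thus at or under the level of 3 counts and below every control library, while the lowest control library, untreated 2, held 110 counts. Summed over the group, the untreated control had 1569 PRMT6 counts and the knockout 2, a ratio of 395 (109 to 3264, 95% counting interval) on scaled library sizes. With ATRA, 2619 counts stood against 2, a ratio of 1254 (347 to 10357). These intervals cover counting error only. The edgeR quasi-likelihood F-test with Benjamini-Hochberg adjustment over all genes tested, used throughout, gave an adjusted p of 0.00142 untreated and 0.00119 with ATRA.

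The regulatory sequences shown are the 250 bases before the annotated start of PRMT6, the targeted gene, and of PRMT5 and its partner WDR77. They come from RefSeq on GRCh38.p14 and are printed 5′ to 3′ on the strand of the gene. PRMT6 lies on the plus strand (chr1:107056424-107056673), WDR77 on the minus strand (chr1:111449257-111449506) and PRMT5 on the minus strand (chr14:22929377-22929626). Capitals mark matches, on either strand, to 4 motifs that do not overlap here: the E-box CACGTG, the GC box GGGCGG, the CCAAT box (ATTGG on the other strand) and AGGTCA, a single copy of the letters that retinoid receptors bind as a repeat.
PRMT6: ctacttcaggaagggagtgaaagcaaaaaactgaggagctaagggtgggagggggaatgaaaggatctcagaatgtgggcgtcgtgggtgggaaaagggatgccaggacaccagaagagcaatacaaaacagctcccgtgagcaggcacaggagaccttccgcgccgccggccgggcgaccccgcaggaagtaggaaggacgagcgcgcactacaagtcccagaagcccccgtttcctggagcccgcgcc
PRMT5: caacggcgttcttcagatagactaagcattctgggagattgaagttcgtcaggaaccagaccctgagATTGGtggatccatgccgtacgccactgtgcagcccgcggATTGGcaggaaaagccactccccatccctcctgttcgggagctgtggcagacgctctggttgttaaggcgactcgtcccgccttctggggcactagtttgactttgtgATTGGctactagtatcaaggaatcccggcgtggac
WDR77: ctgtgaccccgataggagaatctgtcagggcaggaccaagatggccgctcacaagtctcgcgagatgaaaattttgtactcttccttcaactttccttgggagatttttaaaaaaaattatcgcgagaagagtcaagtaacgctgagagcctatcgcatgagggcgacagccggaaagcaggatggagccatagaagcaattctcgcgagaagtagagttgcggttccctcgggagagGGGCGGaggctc
The PRMT5 window held 3 CCAAT boxes, each as ATTGG, the WDR77 window held 1 GC box, and the PRMT6 window held none of these letters. Among 35116 RefSeq windows of the same length, 32% held a CCAAT box, 42.6% a GC box, 12.1% the letters AGGTCA and 6.34% the E-box. The GC content of the windows was 60.4% for PRMT6, 55.6% for PRMT5 and 51.2% for WDR77, beside a median of 58% over all windows. The matches describe the letters of these windows and are not evidence of binding.

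Levels of different genes were compared after division by gene length, as CPM per kb. The length is the 1 deposited for each gene, such as 9458 bases for PRMT7, 8031 for PRMT2, 4796 for PRMT1 and 2650 for PRMT6. It need not match the length of the transcripts expressed. The order, the shares and the size of the ratios below depend on it. PRMT1, the main type I enzyme of most cells, had the highest level of the family in every group, with 91.2 ± 13.7 CPM per kb in untreated control, 146 ± 26.5 in untreated knockout, 116 ± 14.8 in control with ATRA and 113 ± 6.08 in knockout with ATRA (SD, n = 3). PRMT5, CARM1 and WDR77 followed, at 42.5 ± 27.2, 36.7 ± 4.43 and 26.4 ± 13.95 CPM per kb in untreated control (SD, n = 3). In every group each of these overlapped the next in the order, and in the control groups WDR77 also overlapped PRMT2. PRMT2 was at 16.6 ± 6.67 CPM per kb and PRMT7 at 5.31 ± 1.41 CPM per kb in untreated control (SD, n = 3). The lowest levels there were PRMT6 at 4.18 ± 3.92, PRMT3 at 3.77 ± 1.26 and PRMT8 at 0.635 ± 0.116 CPM per kb (SD, n = 3). PRMT7, PRMT6 and PRMT3 overlapped in that group, and PRMT8 was the lowest member apart from PRMT6 in the knockout.

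**Figure D1:**
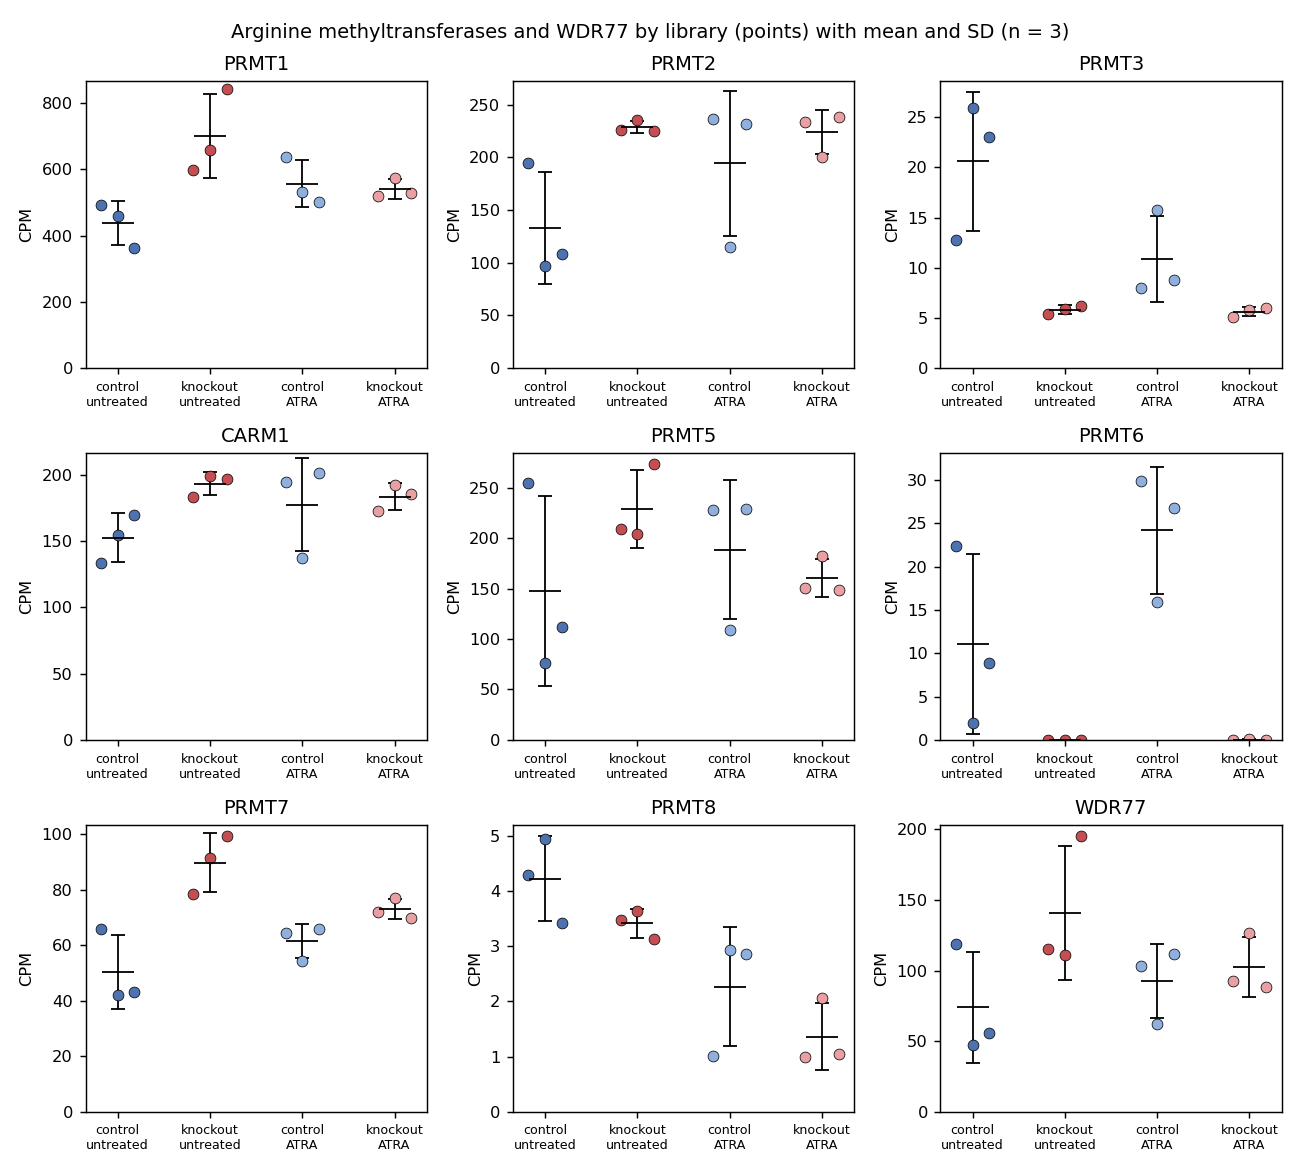
Levels of the 9 genes in each of the 12 libraries in CPM on a linear axis, 1 panel per gene, with points for libraries coloured by group and bars for the mean and SD (n = 3). PRMT6 is at or near 0 in the 6 knockout libraries, PRMT3 is lower in the knockout than in every control library, and most other panels overlap between genotypes with ATRA.

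The summed length-scaled level of the 8 methyltransferases was 201 ± 42.9 CPM per kb in untreated control and 298 ± 39.2 in untreated knockout, and 255 ± 46.2 and 240 ± 11.4 with ATRA (SD, n = 3). PRMT1 made up 46.0% ± 6.89 of that sum in untreated control and 48.8% ± 2.34 in untreated knockout (SD, n = 3). PRMT6 made up 1.90% ± 1.48 in untreated control and 3.52% ± 0.506 in control with ATRA (SD, n = 3). The share of PRMT3 was 2.01% ± 0.937 in untreated control and 0.359% ± 0.0243 in untreated knockout (SD, n = 3).

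**Figure D2:**
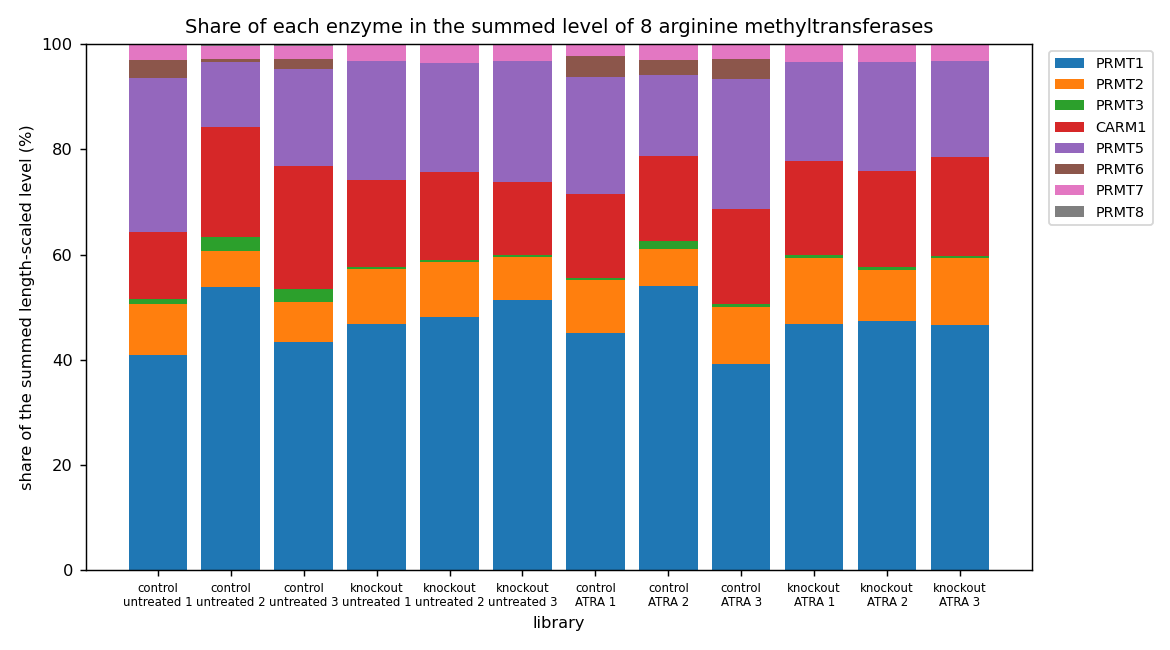
Share of the summed length-scaled level (CPM per kb, in percent) taken by each of the 8 methyltransferases, 1 bar per library, grouped by genotype and treatment. PRMT1 takes the largest share in each group, 46.0% to 48.8% on average, and PRMT6 is visible only in control libraries.

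Untreated, PRMT3 was lower and PRMT1 and PRMT7 were higher in the knockout, and no other member besides PRMT6 passed the test. With PRMT6, 4 of 9 members were called at an adjusted p under 0.05, 2 higher and 2 lower, and without it 3 of 8. Of all genes tested, 34.9% were called, 13% higher and 21.9% lower, so the members' share was near the background. The median log2 fold change was 0.63 over the members and -0.11 over all genes tested. The 3 libraries of each genotype did not overlap for 6 of the 9 members, against 47.9% of all genes.

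PRMT3, a cytosolic enzyme that methylates the ribosomal protein uS5, had 12.8, 25.9 and 23.0 CPM in untreated control and 5.38, 5.89 and 6.21 CPM in untreated knockout. The groups did not overlap, and control library 1 was the lowest control. The log2 fold change was -1.82 ± 0.33 (SE), 3.54-fold lower, with an adjusted p of 0.00393 in edgeR. PRMT3 has a GC content of 34.8%, below the lower quartile of tested genes at 42.2%. The 338 tested genes within 1 percentage point of it had a median log2 fold change of -1.51, and 69.5% of them were called lower, so PRMT3 was -0.31 from their median. With each library's GC trend removed the log2 fold change of PRMT3 was -0.40 and edgeR's adjusted p 0.263.

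PRMT1, which writes most asymmetric dimethylarginine, had 491, 458 and 364 CPM in untreated control and 599, 659 and 842 CPM in untreated knockout. All 3 knockout libraries were above all 3 controls. The log2 fold change was 0.68 ± 0.20 (SE), 1.60-fold higher, with an adjusted p of 0.0211 in edgeR. Genes of its GC content, 56.8%, had a median of 0.47, and 26.6% of them were called higher. The call did not hold with the GC trend removed (0.26, edgeR adjusted p 0.327), without a filter (0.0644), with the near-identical knockout libraries summed (0.0718), without both knockout libraries low in stromal markers (0.0980), or when control untreated 3 or either of knockout untreated 2 and 3 was omitted.

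PRMT7, the monomethylating enzyme, had 65.6, 42.0 and 43.1 CPM in untreated control and 78.3, 91.5 and 99.1 CPM in untreated knockout. The groups did not overlap, and control library 1 was the closest to the knockout. The log2 fold change was 0.84 ± 0.21 (SE), 1.78-fold higher, with an adjusted p of 0.0118 in edgeR. Genes of its GC content, 50.8%, had a median of 0.32, and with the GC trend removed PRMT7 was still called (0.57, edgeR adjusted p 0.0336). It was not called with the near-identical libraries summed (edgeR adjusted p 0.0613), with control untreated 3 left out (0.0510) or without both knockout libraries low in stromal markers.

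PRMT2, a weak type I enzyme and nuclear receptor coactivator, had 194, 96.6 and 108 CPM in untreated control and 226, 236 and 226 CPM in untreated knockout. The knockout libraries were all higher, and control library 1 stood well above the other controls. The log2 fold change was 0.78 ± 0.30 (SE), and the edgeR adjusted p of 0.0610 missed the threshold. PRMT2 passed in several other settings, among them DESeq2 (0.0358), RLE scaling (0.0496), removal of the GC trend (0.0489) and the fit without control untreated 1 (1.17, edgeR adjusted p 0.00813). That last fit called 42.8% of all genes. Without control untreated 2 the log2 fold change was 0.60, and PRMT2 was called in 2 of 12 fits with a library left out.

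PRMT5 and WDR77, whose proteins form the methylosome, did not pass the test in untreated cells. PRMT5 had 254, 76.2 and 112 CPM in untreated control and 209, 204 and 274 CPM in untreated knockout, and WDR77 had 119, 47.3 and 55.7 against 115, 111 and 195 CPM. For both genes control library 1 lay within the knockout range and the other controls lay below it. The log2 fold change of PRMT5 was 0.63 ± 0.39 (SE; 95% interval -0.22 to 1.49; edgeR adjusted p 0.220), and that of WDR77 was 0.93 ± 0.37 (SE; 95% interval 0.13 to 1.72; edgeR adjusted p 0.0655). Without control untreated 1 they were 1.29 and 1.45, with edgeR adjusted p of 0.00989 and 0.00616, in a fit that called 42.8% of all genes. Other omissions took PRMT5 down to 0.32 (without control untreated 2) and WDR77 down to 0.62 (without knockout untreated 3). Of the 12 fits with a library left out, PRMT5 was called in 1 and WDR77 in 2. WDR77 also passed with DESeq2 (0.0367), limma-voom (0.0472), no filter (0.0415) and without control ATRA 2 (0.0494).

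CARM1, a coactivator that methylates histone H3 and splicing factors, had 133, 154 and 170 CPM in untreated control and 183, 200 and 197 CPM in untreated knockout. The groups did not overlap, but the log2 fold change of 0.34 ± 0.19 (SE; 95% interval -0.07 to 0.75) had an edgeR adjusted p of 0.170. CARM1 overlaps YIPF2, which held counts equal to 34.0% of those of CARM1, and no strand setting is stated. PRMT8, a membrane-bound enzyme known from brain, had 4.30, 4.95 and 3.42 CPM against 3.48, 3.63 and 3.13 CPM, with overlap between the groups (log2 fold change -0.31 ± 0.42, SE; edgeR adjusted p 0.584).

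**Figure D3:**
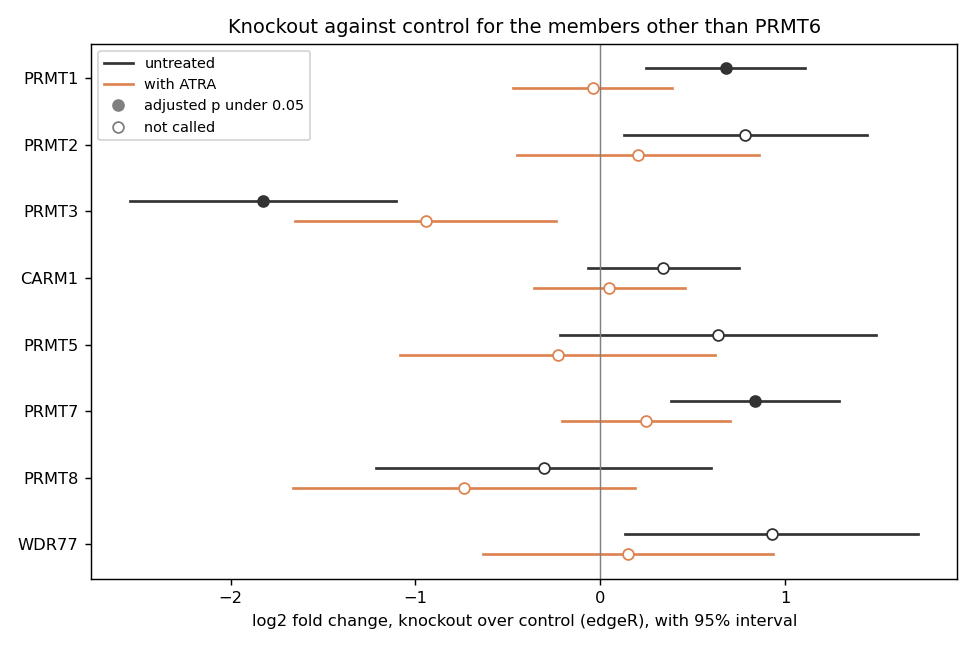
Log2 fold change of knockout over control from edgeR for the 8 members other than PRMT6, untreated (dark) and with ATRA (orange), with 95% intervals, where filled points have an adjusted p under 0.05. PRMT3 lies below 0 and PRMT1 and PRMT7 above 0 among untreated cells, and none of the 8 points with ATRA is filled.

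Each gene's log2 level was first centred on its mean over the 12 libraries, so the signs here are relative between libraries. Rank correlation of these centred levels with GC content was negative in control libraries, from -0.40 to -0.23, except control ATRA 3 at 0.098. In knockout libraries it was positive, from 0.14 to 0.51. The median log2 fold change of genes within 1 percentage point of each member's GC content therefore differed between members, from -1.51 for PRMT3 to 0.47 for PRMT1. WDR77 was 0.85, PRMT2 0.73 and PRMT7 0.52 above the median of their GC neighbours, and PRMT8 was -0.73 from it. With the GC trend removed, PRMT2, PRMT6 and PRMT7 were called.

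**Figure D4:**
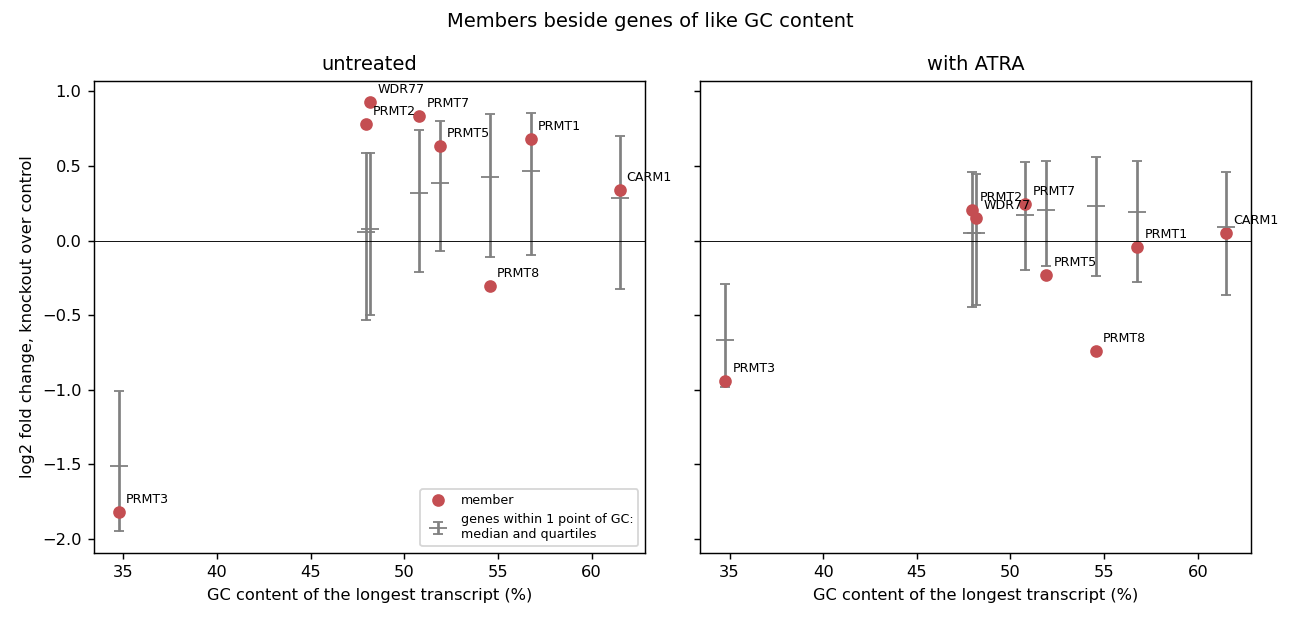
Log2 fold change of knockout over control, untreated (left) and with ATRA (right), against the GC content of the longest transcript in percent, for the 8 members other than PRMT6 (red), with grey bars for the median and quartiles of tested genes within 1 percentage point. Untreated, PRMT3, at 34.8% GC, lies between the median (-1.51) and lower quartile of its neighbours, and WDR77, PRMT2 and PRMT7 lie above the upper quartile of theirs.

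With ATRA, PRMT6 was the only member called, 1 of 9 and 0 of 8 without it, where 7.51% of all genes tested were called, 3.27% higher and 4.24% lower. The 2 knockout comparisons do not share libraries, but they share the estimate of the spread. PRMT3 had 7.94, 15.8 and 8.81 CPM in control and 5.13, 5.81 and 5.98 CPM in knockout with ATRA. The knockout libraries were all lower, and the log2 fold change was -0.94 ± 0.33 (SE; edgeR adjusted p 0.0887). PRMT3 passed with DESeq2 only, among the settings run, and its GC neighbours had a median of -0.67. PRMT7 had 64.2, 54.4 and 65.8 CPM in control and 72.1, 76.9 and 69.9 CPM in knockout, again without overlap (0.25 ± 0.21, SE; edgeR adjusted p 0.462). The libraries did not overlap for 3 of the 9 members, PRMT6 included, against 34.6% of all genes.

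The other 6 members overlapped between the genotypes with ATRA. PRMT1 had 637, 530 and 502 CPM in control and 519, 574 and 528 CPM in knockout with ATRA, a log2 fold change of -0.04 ± 0.20 (SE; 95% interval -0.47 to 0.39; edgeR adjusted p 0.914). PRMT2 was at 237, 115 and 232 against 233, 200 and 239 CPM, and CARM1 at 195, 137 and 201 against 173, 193 and 185 CPM. In both genes control ATRA 2 was the low library and the groups overlapped. PRMT5 was at 228, 109 and 229 against 151, 182 and 149 CPM (-0.23 ± 0.39, SE), and WDR77 at 104, 62.3 and 111 against 92.8, 127 and 88.1 CPM (0.15 ± 0.36, SE). PRMT8 was at 1.02, 2.94 and 2.85 against 0.985, 2.05 and 1.05 CPM (-0.74 ± 0.43, SE). Of these 6 genes none passed edgeR's test, with adjusted p between 0.278 and 0.914.

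ATRA itself called no member. In control cells 0 of 9 members and 0.115% of all genes tested were called, and in knockout cells 0 of 9 and 0.0314%. At an unadjusted p under 0.05 there was 1 of 9 members in each genotype, PRMT3 in control and PRMT8 in knockout. Of all 19130 genes tested, 3961 in control and 2233 in knockout were under that level, so the members did not exceed the background. PRMT8 was lower with ATRA in every library of both genotypes, by -0.89 ± 0.42 in control (SE; edgeR adjusted p 0.251) and -1.32 ± 0.43 in knockout (SE; edgeR adjusted p 0.233) on the log2 scale. In knockout cells it passed when only the groups compared were fitted (edgeR adjusted p 0.0498), a fit that called 7.6% of all genes. PRMT3 had a log2 fold change of -0.92 ± 0.32 in control (SE; edgeR adjusted p 0.141) and -0.05 ± 0.32 in knockout, and in control it passed without control untreated 1 (-1.17, 0.0317), without control ATRA 2 (-1.29, 0.0234) or without control untreated 2 and control ATRA 2 together (-1.11, 0.0439). In these 3 fits 12.4%, 12.3% and 9.87% of all genes were called. PRMT6 had a log2 fold change of 1.13 ± 0.67 with ATRA in control cells (SE; edgeR adjusted p 0.351), with overlapping libraries. Its value was 0.63 without control untreated 2 and 2.16 without control untreated 1. The treated and untreated libraries did not overlap for 2 members in control, PRMT1 and PRMT8, against 14.8% of all genes, and for 4 in knockout, PRMT1, PRMT5, PRMT7 and PRMT8, against 31.9%.

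The response to ATRA was also compared between genotypes by an interaction term. Under it edgeR called 0 of 9 members and 0% of all genes. At an unadjusted p under 0.05 there were 1 of 9 members and 1868 of 19130 genes. PRMT1 was higher with ATRA in each control library (0.35 ± 0.20, SE) and lower in each knockout library (-0.37 ± 0.20, SE). The difference between these responses was -0.72 ± 0.28 (SE), with an unadjusted p of 0.0237 and an edgeR adjusted p of 0.509. The other members had adjusted p of 0.531 to 0.828.

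PRMT5 and WDR77 rose and fell together over the 12 libraries. As a measure of likeness, the root mean square difference between their centred log2 CPM values was 0.20, and WDR77 was the 9th closest of 19129 genes to PRMT5. From the side of WDR77, PRMT5 ranked 48. By the difference itself PRMT1 and PRMT7 were slightly closer, at 0.19, where PRMT7 ranked 166 for PRMT1 and PRMT1 ranked 323 for PRMT7. The libraries share genotype, treatment and GC trend, so these ranks are a description. The ratio of length-scaled levels, PRMT5 over WDR77, was 1.55 ± 0.222 in untreated control, 1.36 ± 0.199 in untreated knockout, 1.62 ± 0.188 in control with ATRA and 1.28 ± 0.106 in knockout with ATRA (SD, n = 3). With ATRA the ratios ran from 1.41 to 1.78 in control and from 1.16 to 1.37 in knockout, without overlap. The levels of 34.6% of all genes did not overlap in that comparison either. Of the knockout ratios, 1.31 and 1.37 came from the near-identical libraries 1 and 3. Untreated, the ratios overlapped, and the difference with ATRA was not tested.

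**Figure D5:**
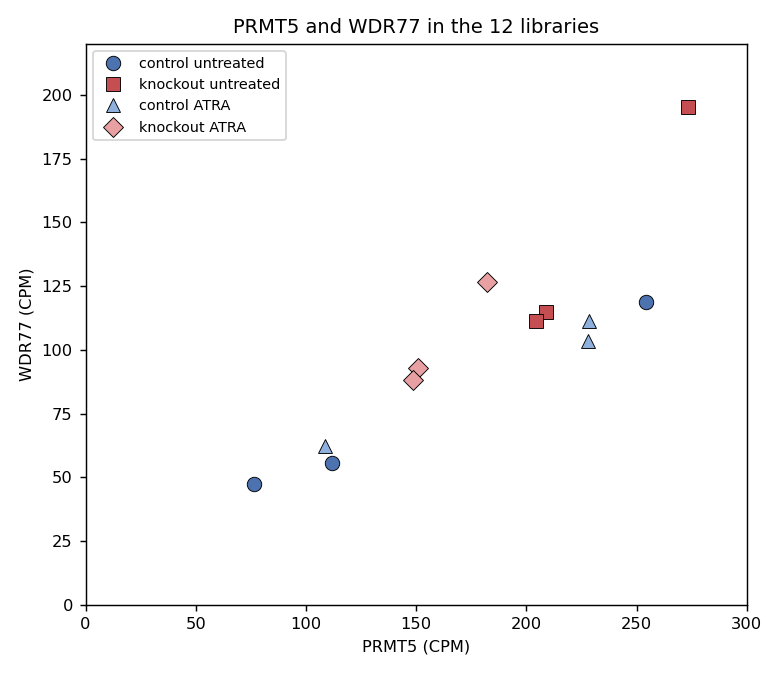
WDR77 against PRMT5 in CPM, 1 point per library, with colour and shape for the 4 groups. Libraries low in PRMT5 are low in WDR77, from control untreated 2 (76.2 and 47.3 CPM) to knockout untreated 3 (274 and 195 CPM).

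Among 15814 other tested genes, those with the pattern closest to each member were as follows. PRMT1 was nearest to DOLPP1, MCRS1 and SNHG15, at differences of 0.07 to 0.10 on the log2 scale. PRMT3 was nearest to NCBP2, BRIX1 and XPOT, at 0.13 to 0.15. PRMT5 was nearest to KNOP1, LANCL2 and IGF2BP1, at 0.14 to 0.15, and WDR77 to DPH2, CCDC137 and CCDC86, at 0.13 to 0.14. PRMT2 was nearest to DOLK, APEX1 and CDC42SE1, CARM1 to INPP5E, UBAC2 and CRTC1, and PRMT7 to RAPGEF1, GUCD1 and ZNF282, all at 0.09 to 0.11. PRMT8 was nearest to JARID2, PRB3 and STEAP3 at 0.33 to 0.34, and PRMT6 to ZNF512, RBM12B and PKIB at 1.09 to 1.47. These differences scale with a gene's own spread, whose SD was 0.81 for PRMT8 and 4.07 for PRMT6. ZNF512 and RBM12B, like PRMT6, were present in all 6 control libraries (13.7 to 40.5 CPM) and at no more than 0.264 CPM in the 6 knockout libraries. Within the family PRMT7 was 0.19 from PRMT1.

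The wider arginine methylation pathway was described with 10 lists of 56 genes, 54 of which were tested. Untreated, 33 of the 54 were called, 11 higher and 22 lower, with a median of -0.36, where 34.9% of all genes were called, 13% higher and 21.9% lower. With ATRA 8 were called, 1 higher and 7 lower, where 7.51% of all genes were called, with a median of -0.25 beside -0.06 over all genes. With the GC trend removed 12 were called untreated, 10 of them among the 33, where 17.6% of all genes were called, and 2 with ATRA (6.96%). With the near-identical knockout libraries summed 4 were called untreated (5.42% of all genes) and 1 with ATRA (0.359%). The counts of the single lists below are to be read beside the same shares of all genes.

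The other proteins proposed to be arginine methyltransferases, PRMT10 (now PRMT9), FBXO11 and NDUFAF7, were all lower in the untreated knockout. FBXO11, better known as a ubiquitin ligase subunit, had 55.4, 50.2 and 56.5 CPM in control and 18.5, 22.9 and 17.5 CPM in knockout, with no overlap. Its log2 fold change was -1.46 ± 0.19 (SE; edgeR adjusted p 0.00169), and with ATRA it was -1.07 (edgeR adjusted p 0.00989). NDUFAF7, a mitochondrial enzyme that methylates a complex I subunit, was lower by -1.78 ± 0.27 (SE; edgeR adjusted p 0.00264) and PRMT10, which makes symmetric dimethylarginine, by -1.92 ± 0.57 (SE; edgeR adjusted p 0.0223) on the log2 scale. With ATRA NDUFAF7 (-0.93, edgeR adjusted p 0.0517) and PRMT10 (-1.04, 0.241) did not pass. With the GC trend removed, neither FBXO11 nor PRMT10 was called in untreated cells, and FBXO11 was not called with ATRA (-0.54, edgeR adjusted p 0.235), nor with the near-identical libraries summed (0.101) or without knockout ATRA 1 (0.0505) or 3 (0.0636).

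All 3 further partners of PRMT5 were called in untreated cells. CLNS1A, which brings Sm proteins to PRMT5, had 147, 278 and 255 CPM in control and 94.3, 88.8 and 141 CPM in knockout (-1.07 ± 0.29, SE; edgeR adjusted p 0.0156). RIOK1, an adaptor that competes with CLNS1A for PRMT5, was lower by -1.13 ± 0.28 (SE; edgeR adjusted p 0.0115) on the log2 scale. COPRS, which guides PRMT5 to histone H4, had 49.0, 56.1 and 31.3 CPM in control and 92.1, 90.3 and 89.3 CPM in knockout, 0.99 ± 0.24 higher on the log2 scale (SE; edgeR adjusted p 0.0104). With ATRA none of these 3 was called (adjusted p 0.285, 0.0606 and 0.251), and with the GC trend removed or the near-identical libraries summed none was called untreated.

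Of the 4 Sm and LSm substrates of PRMT5, SNRPB was higher (0.89, edgeR adjusted p 0.0125) and SNRPD1 lower (-0.99, 0.0373) in the untreated knockout. Of the 3 regulators, 2 were called and higher, BTG2 (2.31, edgeR adjusted p 0.00794), which binds PRMT1, and EPB41L3 (1.08, 0.0180), which binds PRMT3. Among methylarginine readers 4 of 5 were called, 3 of them lower, with SMN1 at -1.64 (edgeR adjusted p 0.00815) and SMN2 at -1.76 (0.0106). SMN1 and SMN2 are near-identical copies that may share reads, so their separate values are uncertain. Of 16 methylated RNA-binding proteins 7 were called, 2 higher and 5 lower, beside 34.9% of all genes, and SERBP1 (-1.19, edgeR adjusted p 0.00769) and SYNCRIP (-0.99, 0.00824) were among the lower ones. With ATRA 4 of the 16 were lower, SERBP1 (-1.03, 0.0368) and SYNCRIP (-0.86, 0.0391) again among them. These 2 ATRA calls were lost with only the groups compared, the replicate block, the GC trend removed or the near-identical libraries summed. Leaving out the low-stromal pair or the controls lowest in PRMT6 also lost both, and limma-voom lost that of SYNCRIP. The calls held in 6 (SERBP1) and 5 (SYNCRIP) of 12 fits with a library left out. With the GC trend removed neither SERBP1 nor SYNCRIP was called untreated, and SYNCRIP was then at 0.21. SNRPD1, SMN1 and SMN2 lost their untreated calls in that setting too. With the near-identical libraries summed, SERBP1, SYNCRIP, SNRPB, SNRPD1, EPB41L3, SMN1 and SMN2 were not called untreated.

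The cycle that supplies S-adenosylmethionine had 5 of 8 genes called untreated, all lower, beside 34.9% of all genes called and 21.9% lower. Among them were MAT2B (-1.26, edgeR adjusted p 0.00833), a regulator of its synthesis, and AMD1 (-1.59, 0.00833), which diverts it to polyamines. MAT2B, AMD1 and MTAP were all called untreated and lost that call with the GC trend removed or the near-identical libraries summed. MTAP, which recovers methionine, was the only one of the 8 called with ATRA (-1.11, edgeR adjusted p 0.0299). That call was lost under the same 2 settings, with only the groups compared, the replicate block or the controls lowest in PRMT6 left out, and held in 7 of 12 fits with a library left out. Of 5 arginine deiminases and JMJD6 tested, PADI3 (-3.74, edgeR adjusted p 0.00809) and PADI2 (-1.66, 0.0111) were lower untreated. PADI3 held 0.774, 4.58 and 11.6 CPM in untreated control libraries, and without control untreated 3 its value was -2.68. Neither PADI3 nor PADI2 was called untreated with the near-identical libraries summed. PADI6 was lower with ATRA, with 5.51, 5.67 and 1.32 CPM in control and at most 0.117 CPM in knockout (-6.34, edgeR adjusted p 0.0292), a call that held in 7 of 12 fits with a library left out and was lost with the near-identical libraries summed or the low-stromal pair left out. DDAH2, which breaks down free dimethylarginine, was higher untreated (0.93, edgeR adjusted p 0.00755), but not called with the GC trend removed or the near-identical libraries summed.

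Of 5 genes that other studies reported as repressed by PRMT6, 3 were higher and 1 lower in the untreated knockout. CDKN1A, the cyclin-dependent kinase inhibitor p21, was 3.69 higher on the log2 scale untreated (edgeR adjusted p 0.000167) and 3.51 higher with ATRA (0.000266), the only one of the 5 called there. CDKN1B, the inhibitor p27, was lower untreated (-0.95, edgeR adjusted p 0.00793), but not called with the GC trend removed or the near-identical libraries summed. Of the 22 named list genes called untreated, 7 were still called with the GC trend removed: NDUFAF7, SNRPB, BTG2, EPB41L3, PADI3, PADI2 and CDKN1A. With the near-identical libraries summed 4 were still called: FBXO11, NDUFAF7, BTG2 and CDKN1A. With a library left out 16 to 22 were still called, where PRMT10 was called in 7 and SNRPD1 in 5 of 12 fits. Of the 6 called with ATRA, 1 to 6 were still called with a library left out, and CDKN1A was called in each of these fits.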

How the data were processed

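The authors deposited raw counts per gene, 1 column per library, with gene lengths. Per the submitters' processing notes, bcl2fastq, TopHat2, Subread, featureCounts and DESeq2 were used on hg19 and GRCh37. For versions, annotation and strand setting, the sources used here give nothing. Per the labels' protocols, the TruSeq stranded mRNA kit made the libraries.

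Genes passing filterByExpr (minimum count 10) were fitted in edgeR 4.0.16 under R 4.3.3 with TMM scaling and 1 coefficient per group over 12 libraries, giving 5 contrasts. Benjamini-Hochberg adjustment covered all 19130 genes tested. Alternatives were RLE scaling, DESeq2 1.42.0, limma-voom (limma 3.58.1), other filters, the compared groups only, a replicate block, GC trend removal, summed or omitted libraries, and each library left out. GC content came from GENCODE v44 on GRCh38 transcripts for 85.6% of tested genes. Overlapping genes were found by RefSeq coordinates on GRCh38, whereas the counts were made on hg19 and GRCh37. The named genes are all members, all genes of the other methyltransferase and PRMT5 partner lists, per other list the 2 called genes of smallest adjusted p in each knockout comparison, and the 3 nearest genes per member, clone-based, antisense and small RNA symbols excepted. Members and lists were chosen with earlier results of these data known.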

Additional observations from a re-analysis of the deposited data

How the results depend on the processing

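With 1 library left out, untreated knockout against control had 2 (without control untreated 3) to 7 (without control untreated 1) members called. These fits called 18.1% and 42.8% of all genes, and the full fit called 4 members and 34.9%. Other list genes called were 20 (15.5% of all genes) to 36 (42.8%), and 33 in the full fit. With ATRA the same step gave 1 to 1 members and 1 to 12 other list genes, where 1.11% to 10.9% of all genes were called. The full fit there called 1 and 8 (7.51%). For ATRA in control the step gave 0 to 1 members and 0 to 5 other list genes (0% to 12.4% of all genes). For the interaction it gave 0 to 1 other list genes (0% to 0.684%). As in the full fit, the spread was pooled over all groups. A library left out of 1 group could thus change calls in comparisons without that group.

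Untreated, 2 members were called with near-identical libraries summed (5.42% of all genes) or without both low-stromal knockout libraries (22.7%), 5 with RLE scaling (35.1%) and 6 with DESeq2 (40.9%) or limma-voom (33.7%). With GC removed 12 (17.6%) and with libraries summed 4 (5.42%) other list genes were called. With ATRA, DESeq2 called 2 members and 16 other list genes (15.5% of all genes), limma-voom 5 (5.31%) and the compared groups alone 3 (4.31%). GC removal called 2 of these list genes (6.96%) and summing 1 (0.359%). Omission of the low-stromal knockout pair called 5 (4.47%), and of the pair of controls lowest in PRMT6 3 (6.84%). For ATRA in control, omitting those controls called 1 member and 4 other list genes (9.87% of all genes), DESeq2 5 (8.55%) and no filter 4 (3.84%). For ATRA in knockout, the compared groups alone called 1 member and 3 other list genes (7.6% of all genes), and omitting those controls 1 (2.96%).

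With the replicate number as a block, 5 members (PRMT2 added, edgeR adjusted p 0.0379) and 32 other list genes were called untreated (30.2% of all genes). With ATRA 1 and 3 were called (3.98%). After centring on group means, same-numbered libraries of the 2 genotypes correlated by -0.08 to 0.02, and differently numbered ones by -0.09 to 0.10. Within a genotype, same-numbered untreated and ATRA libraries correlated by -0.23 to 0.28 in control and -0.49 to 0.39 in knockout. With 3 libraries per group these values cannot tell what a number shares, and the labels do not say.

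Some log2 fold changes changed sign. Untreated, SYNCRIP became 0.21 with GC removed, and PADI6 ran from -4.02 to 1.32 with a library left out. With ATRA, PRMT1 became 0.0045 with RLE or DESeq2, CARM1 -0.046, CLNS1A 0.035 and MAT2B 0.27 with GC removed, PRMT2 -0.065, CARM1 -0.11 and WDR77 -0.069 without the controls lowest in PRMT6, and WDR77 -0.031 without the low-stromal pair. With a library left out the ranges were -0.087 to 0.066 for PRMT1, -0.064 to 0.38 for PRMT2, -0.11 to 0.17 for CARM1, -0.068 to 0.33 for WDR77 and -0.15 to 0.021 for DDAH2. For ATRA in knockout, PRMT2 became 0.022 with GC removed and 0.034 without the low-stromal pair, and with a library left out ran from -0.078 to 0.046 and PRMT3 from -0.099 to 0.019. Apart from GC removal, which acts on the GC trend by construction, the cause was not tested. PRMT6 in the knockout was at the depth limit.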
